A study of Homo sapiens with 6 samples.

Results

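The regions described here are 2087 sites between genes at which PLAG1-S was called in both clones of the study and USF2 was not called nearby. Each is a clone 4 PLAG1-S peak under 700 bp wide that overlapped a clone 5 PLAG1-S peak by at least 1 bp. No USF2 peak of either clone lay within 100 bp of it, both of its edges were more than 3 kb from either end of every RefSeq gene of any type, and its summit lay outside all genes. They were picked on chromosomes 1 to 22 and X from 37331 clone 4 PLAG1-S peaks, of which 21330 were found in clone 5, and they made up 9.78% of these reproducible peaks. Of the 21330, 18668 were narrow, 15079 of those had no USF2 peak, 6276 of these were more than 3 kb from gene ends, and 2087 of these had a summit outside genes.

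ChIP-seq was performed on K562 cells, a human chronic myeloid leukaemia line, engineered to overexpress both USF2 and PLAG1-S, the latter with a FLAG tag. For each of 2 clones (4 and 5) an anti-FLAG library, an anti-USF2 library and an input library were sequenced, to 42.5 M reads of 50 bp per immunoprecipitate and 55 M per input, per the labels. Peaks were deposited for the 4 immunoprecipitates, each called against the merged inputs, so that the lists share their input reads. The sources used here do not say how the inputs were scaled to each library, which bears on every ratio between clones. Every group carries both overexpressed proteins, the FLAG antibody reads only the tagged protein, and each replicate is 1 clone, so that a difference between clones and a difference between 2 libraries cannot be told apart. The lists held 37574 and 29889 PLAG1-S peaks and 9338 and 4369 USF2 peaks in clones 4 and 5.

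PLAG1 is a C2H2 zinc finger transcription factor that binds a G-rich bipartite motif, and PLAG1-S is a short form of it that starts at an internal methionine and lacks the first zinc fingers. USF2 is a basic helix-loop-helix leucine zipper factor that binds the E-box. Sites far from genes can belong to enhancers, silencers or insulators, or can be bound with no measurable effect on a gene, and the gene nearest to a site need not be the gene it acts on. Nearest genes are given below only as landmarks.

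The sequences shown are the 250 bases before the transcription start of 4 genes that lie nearest to regions described below, from RefSeq (GRCh38.p14), written 5′ to 3′ on the strand of the gene. FOXO6 and DUSP2 are shown because they are the nearest coding genes of the strongest regions in clone 4, and no reproducible PLAG1-S summit lay in their promoter window, which also takes in the 50 bases after the start. RUNX3 and MYB are shown because they are blood transcription factors with regions between genes and also a PLAG1-S summit in the promoter window. Capitals mark the G-rich motif, which is GAGGC or GGGGC, then 6 to 8 bases of any kind, then GGG, on either strand. Overlapping matches run together.
FOXO6, chr1:41361184-41361433, plus strand: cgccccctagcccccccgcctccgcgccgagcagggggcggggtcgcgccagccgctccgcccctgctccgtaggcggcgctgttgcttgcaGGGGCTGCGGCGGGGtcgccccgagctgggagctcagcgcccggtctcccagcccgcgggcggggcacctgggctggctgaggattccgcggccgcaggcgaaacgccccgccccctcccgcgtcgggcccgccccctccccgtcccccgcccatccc
DUSP2, chr2:96145441-96145690, minus strand: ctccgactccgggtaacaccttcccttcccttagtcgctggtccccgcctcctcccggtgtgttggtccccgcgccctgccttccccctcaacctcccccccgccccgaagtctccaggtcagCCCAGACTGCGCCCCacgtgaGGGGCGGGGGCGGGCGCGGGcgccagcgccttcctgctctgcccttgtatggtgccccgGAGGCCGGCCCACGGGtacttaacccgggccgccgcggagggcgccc
RUNX3, chr1:24930277-24930526, minus strand: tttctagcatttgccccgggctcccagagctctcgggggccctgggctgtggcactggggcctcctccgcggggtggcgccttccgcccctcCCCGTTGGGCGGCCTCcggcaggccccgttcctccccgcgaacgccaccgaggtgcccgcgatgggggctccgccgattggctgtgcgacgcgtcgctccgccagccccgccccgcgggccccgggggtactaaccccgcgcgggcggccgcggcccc
MYB, chr6:135181058-135181307, plus strand: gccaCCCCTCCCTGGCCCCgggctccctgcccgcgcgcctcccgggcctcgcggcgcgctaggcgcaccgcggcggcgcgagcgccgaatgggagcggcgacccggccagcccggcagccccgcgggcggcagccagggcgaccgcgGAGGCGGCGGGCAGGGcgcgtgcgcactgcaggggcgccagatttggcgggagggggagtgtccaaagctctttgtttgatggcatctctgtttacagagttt
The motif occurred once in the FOXO6 and RUNX3 windows, 4 times in that of DUSP2 and 2 times in that of MYB. Only windows with a match were kept for printing, so its presence in these 4 is no result. The windows of TRIM69, ITIH5 and SLC46A2, whose regions come next in clone 4 fold, held none. Nor did the other RUNX3 window. IKZF1 also met the reason given for RUNX3 and MYB and is not shown. The E-box, CACGTG, occurred in the DUSP2 window, where it overlaps a G-rich match, and not in the other 3. The sequence of the regions themselves was not used here.

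Across the 2087 regions the fold, which is the enrichment at the summit over the local background, had a median of 6.44 in clone 4 (quartiles 4.97 and 8.59, range 1.59 to 33.9). In clone 5 the median was 5.28 (quartiles 4.44 and 6.48, range 1.67 to 26.8). These values took part in peak calling and are a description. The same medians were 5.27 and 5.18 over 7017 narrow PLAG1-S-only peaks within 3 kb of a coding gene end, and 6.06 and 5.28 over 4189 such peaks inside genes and over 3 kb from their ends. Regions between genes thus stood above those at gene ends in clone 4, and the 3 locations lay close together in clone 5. The rule took part in this contrast. Before clone 5 was required, the clone 4 medians were 5.13 between genes, 5.01 inside genes and 4.76 at coding gene ends. The part of the width limit was not tested. The 175 reproducible peaks between genes that were co-bound by USF2, meaning within 100 bp of a reproducible USF2 peak, had medians of 16.1 and 11.4. No width limit was set for them, and their median width in clone 4 was 496 bp. Over all 21330 reproducible peaks the medians were 6.40 and 5.70.

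The number of fragments over a summit was recovered from the deposited fold and p-value. The regions had a median of 30 fragments in clone 4 over a local background of 3.50, and 23 over 3.19 in clone 5. A typical region therefore rested on few fragments in each library, and the median −log10 q was 14.0 and 8.97. Both clones reached a −log10 q of at least 10 in 722 regions (34.6%, 32.6% to 36.7%), against 45.1% of all reproducible peaks. The share was 29.8% (28.8% to 30.9%) for the narrow PLAG1-S-only peaks at coding gene ends and 32.9% (31.5% to 34.3%) for those inside genes. The regions were 294 bp wide at the median in clone 4 and 235 bp in clone 5.

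Summits of the clones lay close to each other. The median offset was 26 bp, and 72.4% of the regions had summits within 50 bp (95% Wilson interval 70.5% to 74.3%), against 51.6% at coding gene ends (50.4% to 52.8%) and 67.4% inside genes (66.0% to 68.8%). The share was 63.6% (63.0% to 64.3%) of all reproducible peaks. It was highest, at 91.4% (86.3% to 94.7%), for the co-bound peaks between genes, with a median offset of 12 bp. Clone 5 peaks were wider at coding gene ends, at a median of 308 bp against 235 bp. The part of width in the offsets was not tested. These intervals, like all those given here, cover counting error only and not the spread between clones.

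Between genes, stronger peaks were found again more often. Before clone 5 was required, 5204 clone 4 peaks met the other limits, and 2087 of them (40.1%, 38.8% to 41.4%) were found in clone 5, against 57.1% of all clone 4 peaks. The share was 61.1% at coding gene ends (7017 of 11483 peaks) and 43.1% inside genes (4189 of 9710). The median clone 4 fold before clone 5 was required was 5.13 between genes, 4.76 at coding gene ends and 5.01 inside genes, the reverse of the order of the shares. Locations were not compared within classes of fold, and the part of strength or peak width in the shares was not tested. From the weakest to the strongest of 5 equal classes of clone 4 fold, the share between genes was 20.1%, 23.4%, 27.4%, 47.7% and 81.8%. The peaks seen in clone 4 only had a median fold of 4.74.

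The fold was larger in clone 4 than in clone 5 in 1530 of the 2087 regions (73.3%, 71.4% to 75.2%), with a median ratio of 1.20, against 66.5% of all reproducible peaks. At coding gene ends the share was 56.3% (55.1% to 57.5%) with a median ratio of 1.04, and inside genes 67.1% (65.6% to 68.5%) with a ratio of 1.14. Among the 175 co-bound peaks between genes the share was 90.3% (85.0% to 93.8%) with a median ratio of 1.34. A larger fold in clone 4 was thus not particular to the regions described here. The order of the 3 locations was the same with the limits applied to clone 5 coordinates (1.22 between genes, 1.16 inside genes and 1.09 at gene ends), and with a −log10 q of at least 10 in both clones (1.22, 1.15 and 1.08). With the summits of the clones within 50 bp, the medians were 1.24 between genes, 1.17 inside genes and 1.09 at gene ends. The median ratio of the local backgrounds was 1.08 in all 3 locations. Both clones were called against the same merged inputs, so this equality was largely set by the design. It is no check of the ratios between clones. With 1 library per clone, it was not tested whether the clones or their libraries differ here.

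**Figure D1:**
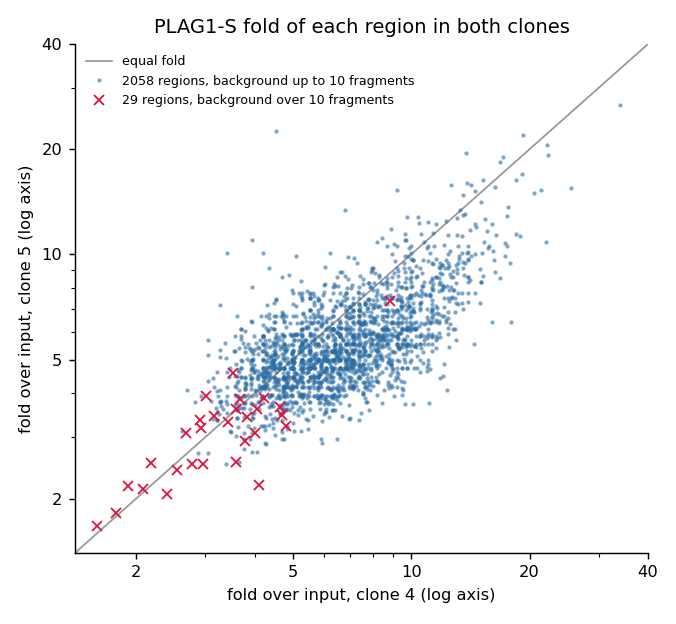
Fold over the merged input of each of the 2087 regions in clone 4 (x axis, log scale) and clone 5 (y axis, log scale), with the line of equal fold. Most points, 1530 of them, lie below the line, and the 29 crosses, regions with a clone 4 local background over 10 fragments, lie mostly at low fold in both clones.

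The ratio of clone 4 to clone 5 also rose with the clone 4 fold, as it must to some extent when peaks are sorted by its numerator. In each of the 5 classes of clone 4 fold, the median ratio was nonetheless highest between genes. In the weakest class it was 0.914 between genes, 0.901 inside genes and 0.878 at coding gene ends. In the strongest it was 1.52, 1.43 and 1.35, over 420, 730 and 743 peaks. Across the 2087 regions the folds of the clones had a Spearman correlation of 0.608, a description over sites that share libraries and inputs.

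**Figure D2:**
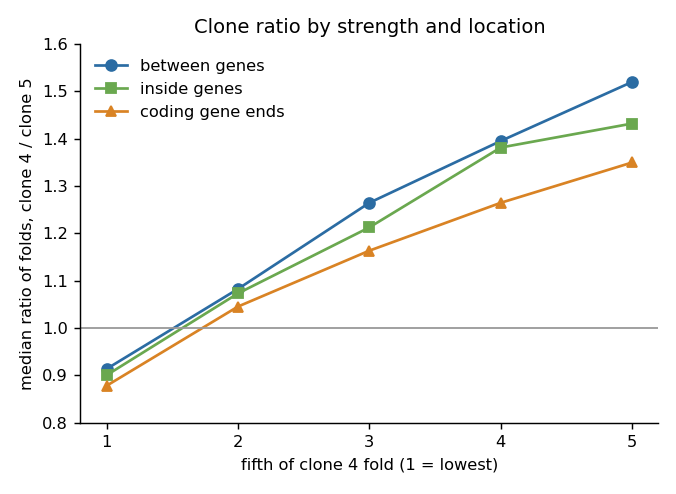
Median ratio of the clone 4 to the clone 5 fold (y axis) in the 5 classes of clone 4 fold (x axis, 1 is the lowest) for narrow PLAG1-S-only peaks between genes, inside genes and at coding gene ends. The 3 lines rise together, from 0.914 to 1.52 between genes and from 0.878 to 1.35 at gene ends.

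The strongest region lay 7.48 kb from the 5′ end of FOXO6, a forkhead transcription factor gene, at chr1:41353638-41354293 (hg38). Its fold was 33.9 in clone 4, from 163 fragments, and 26.8 in clone 5, from 130 fragments. It ranked 221 among all clone 4 peaks and 295 among those of clone 5, and a second region lay 217 bp away with folds of 7.85 and 5.42. In both clones the stronger of this pair was the first of all regions between genes.

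The 12 regions with the largest clone 4 fold and the 12 with the largest clone 5 fold had 6 members in common and were 18 together. The next in clone 4 lay 12.6 kb from DUSP2, which encodes a phosphatase that inactivates MAP kinases, with folds of 25.4 and 15.5. The region near TRIM69, a gene of the tripartite motif family, had 22.3 and 19.3. ITIH5, of the inter-alpha-trypsin inhibitor family, had a region 51.0 kb away with 22.1 and 20.6 and with the next reproducible PLAG1-S peak 98419 bp away. A region 12.5 kb from SLC46A2, a solute carrier gene, had 22.1 in clone 4 and 10.9 in clone 5, a ratio of 2.03.

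TH encodes tyrosine hydroxylase, the rate-limiting enzyme of catecholamine synthesis, and its region 30.8 kb away had folds of 21.3 and 15.3. The region nearest to LOC124903407, 191 kb from it, had 20.5 and 15.0. The region 3.65 kb from CES4A, a carboxylesterase gene, had 19.3 and 21.9. It was the only one of these 12, which were picked by clone 4 fold, with the larger fold in clone 5. Folds were 19.2 and 17.0 near SSBP3, whose product binds the cofactor LDB1, 18.9 and 11.3 near HECTD4, 18.5 and 11.4 near CFC1, which encodes a Nodal co-receptor, and 18.5 and 16.3 near BMPR1A, a type I receptor for bone morphogenetic proteins.

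In clone 5, 6 further regions entered the leading 12, all picked by clone 5 fold and all with the larger fold there. They lay nearest to EIPR1, 323 kb away, with folds of 13.7 and 19.4 in clones 4 and 5, to SPDEF, an ETS factor gene, with 17.1 and 19.0, and to MYCN, 68.2 kb away, with 16.9 and 18.3. The next were ASIC1, an acid-sensing channel gene, with 15.2 and 16.4, and ZFP36L2, whose product promotes decay of AU-rich mRNAs, with 13.9 and 16.0. The sixth lay 40.7 kb from FOXK1, with 4.53 in clone 4 and 22.5 in clone 5, the lowest ratio of all regions at 0.202. Its 1037-bp clone 5 peak spanned more than 1 clone 4 peak, and its summit lay 507 bp from that of the region, so that the clone 5 value belongs to the neighbouring summit.

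The regions thinned out away from coding genes. The median distance from the summit to the nearest end of a protein-coding gene was 23.7 kb, whereas the median over all positions that the rule allows was 163 kb. There were 5.60 regions per Mb of allowed space at 3 to 10 kb (533 regions), 3.30 at 20 to 50 kb (523), 1.19 at 100 to 200 kb (187) and 0.0689 beyond 500 kb (23). Allowed space was counted with unsequenced gaps and repeats included, in which reads cannot be placed, and their part in the fall was not tested. Strength did not follow the density. The median clone 4 fold lay between 6.30 and 6.89 in the 6 classes up to 500 kb and was 5.27 in the last, and the median clone 5 fold lay between 5.26 and 5.56 in all 7.

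**Figure D3:**
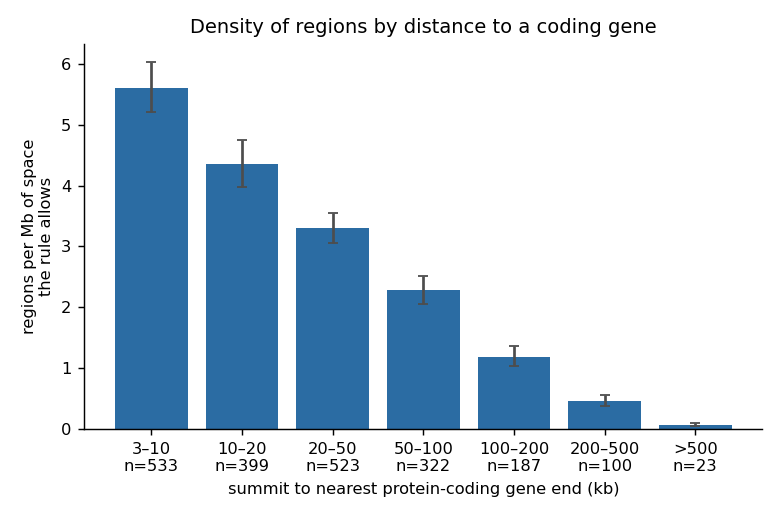
Regions per Mb of space that the rule allows (y axis) by distance from the summit to the nearest protein-coding gene end (x axis, kb), with the number of regions in each class. Bars carry 95% Wilson intervals of the class's share of regions, scaled to the bar, and fall from 5.60 to 0.0689 per Mb.

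Of the 1590 regions whose nearest coding gene has a known strand in the tables used, 831 (52.3%, 49.8% to 54.7%) lay closest to its 5′ end and 759 to its 3′ end. The median clone 4 folds were 6.40 and 6.59. A protein-coding gene was the nearest gene of any type for 866 regions (41.5%), a lncRNA for 764 (36.6%), a pseudogene for 356 (17.1%) and a miRNA gene for 31.

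Over all chromosomes there were 1.75 regions per Mb in 1192 Mb of allowed space. The density was highest on chromosome 19, with 5.76 per Mb from 83 regions, followed by chromosomes 20 (4.17), 17 (4.04), 16 (3.28) and 22 (3.12). It was lowest on chromosomes 13, with 0.248 per Mb from 15 regions, and X, with 0.359 from 30. Chromosomes 16, 17, 19, 20 and 22 are known to be rich in genes, and chromosome 13 to be poor in them. The median clone 4 fold was 5.76 on chromosome 19, 7.11 on chromosome 13 and 4.82 on chromosome 22, the lowest of all. The median local background in clone 4 was at the lowest level in the lists, 2.80, on chromosomes 13, 14 and X. Copy number in K562 cells was not measured by these files, and its part in the densities was not tested.

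**Figure D4:**
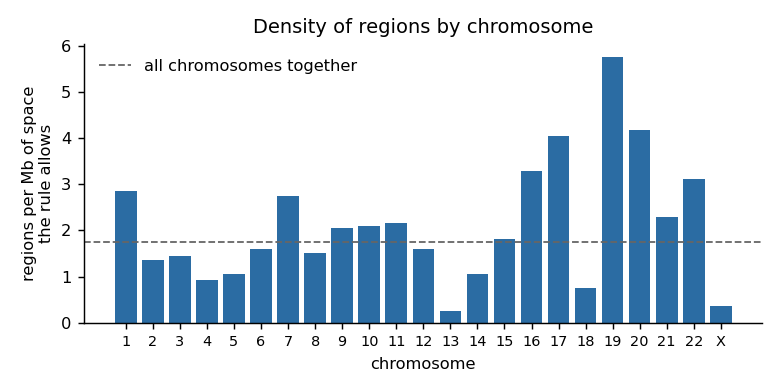
Regions per Mb of space that the rule allows (y axis) on each chromosome (x axis), with a dashed line at 1.75 for all chromosomes together. Chromosome 19 stands highest at 5.76 and chromosome 13 lowest at 0.248.

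A local background over 10 fragments in clone 4 was recovered at 29 regions. Of these, 16 lay on chromosome 22 between 18592220 and 23036065, a stretch holding 31 regions in all, 6 on chromosome 9 between 130984142 and 131251399, and 4 on chromosome 21. Their median folds were 3.43 and 3.20, from 52 and 43 fragments, against 6.50 and 5.31 from 29 and 22 fragments in the other 2058. These regions thus gathered more fragments than the others and had lower folds. K562 cells carry the Philadelphia chromosome, which joins parts of chromosomes 22 and 9, and its part in these values was not tested. The lowest folds of all, 1.59 and 1.67, came from chr16:34595104-34595343, where the background was 98.7 fragments in clone 4. On chromosome 21, regions beside the ribosomal RNA genes RNA45SN1 and RNA45SN2 had clone 4 folds of 2.09 and 1.91 over backgrounds of 44.5 and 42.9.

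Another reproducible PLAG1-S peak lay within 10 kb, edge to edge, of 916 regions (43.9%, 41.8% to 46.0%), against 54.9% of all reproducible PLAG1-S peaks. The share was 61.1% at coding gene ends and 49.5% inside genes. A USF2 peak of either clone lay within 10 kb of 437 regions (20.9%, 19.2% to 22.7%), against 45% of all reproducible peaks, of which those with USF2 beside them are a part. Among peaks picked by the same USF2 limit the shares were 29.7% (28.7% to 30.8%) at coding gene ends and 25.9% (24.6% to 27.3%) inside genes, both above the share between genes. Within 1 kb the shares were 3.16%, 11.8% and 5.08%. The median gap was 13684 bp to the next PLAG1-S peak and 44857 bp to the next USF2 peak.

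When regions within 50 kb of each other were joined, 1465 runs resulted. Of the regions 1121 (53.7%) stood alone, and 125 runs of at least 3 held 528 regions (25.3%). The largest run held 12 regions in 34.7 kb between TACC3, a spindle protein gene, and FGFR3, a fibroblast growth factor receptor gene (chr4:1750017-1784759). Its clone 4 folds ranged from 3.97 to 10.3 and its clone 5 folds from 3.41 to 7.84, so that no single region led it. With peaks that the rule left out, 17 reproducible PLAG1-S peaks and 2 USF2 peaks lay in its span.

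The second run held 11 regions in 230 kb around UNCX, a homeobox gene, and up to MICALL2, with clone 4 folds from 3.97 to 10.3. The run of 10 regions in 114 kb by LOC124905027 and SIK1, a salt-inducible kinase gene, had 1 region of 16.2 and 9.67 in clones 4 and 5, one of 11.3 and 9.44, and the others at 7.85 or below in clone 4. It also held 21 reproducible PLAG1-S peaks in all. The run of 9 in 62.5 kb between the receptor gene NOTCH1 and EGFL7, which encodes a factor secreted by vessel cells, ranged from 3.69 to 11.1. Of the pair of runs with 8 regions, the one by WNT4 and ZBTB40 spread over 98.9 kb with folds from 3.15 to 9.87. The other, by CCDC188 on chromosome 22, was packed in 28.1 kb with folds from 3.15 to 6.03 over local backgrounds of 8.13 to 11.3 fragments. From the UNCX run to the CCDC188 run, in the order given, the spans held 10, 6, 3, 1 and 9 USF2 peaks.

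The regions had 1423 protein-coding genes as their nearest, 7.12% of the 19974 in the annotation, and 1028 of these were nearest to 1 region only. TACC3 had the most, 10. Chosen after its values were seen, SHH, which encodes a secreted morphogen, was nearest to 7 regions between 7.90 and 281 kb away. Of the 1423 genes, 800 (56.2%, 53.6% to 58.8%) also had a reproducible PLAG1-S peak within 3 kb of an end, against 44.8% (44.0% to 45.5%) of the other coding genes. For a peak co-bound by USF2 the shares were 10.2% (8.72% to 11.9%) and 8.51% (8.12% to 8.92%). Genes with more space around them can be nearest more often, so list members are also given per Mb below. The density of all regions fell with distance from coding genes, from 5.60 to 0.0689 per Mb. The lists were not matched for distance, so a list with little space per gene can have a higher density. The part of distance in the list densities was not tested.

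Among 36 genes of blood transcription factors, 14 (38.9%, 24.8% to 55.1%) were nearest to at least 1 region, against the 7.12% of all coding genes. They had 27 regions at 7.09 per Mb of space nearest to them, against 1.75 per Mb for all regions, and the median folds of these regions were 6.54 and 5.80. Their space was wide, at 106 kb per gene against 59.7 kb over all coding genes. IRF1, an interferon-regulated factor, had the strongest, 5.16 kb from its 5′ end, with 17.3 in clone 4 from 100 fragments and 10.8 in clone 5 from 59. NFIA, which takes part in erythroid fate, had 3 regions, the strongest at 12.3 and 8.11, and the others overlapped the same clone 5 peak.

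RUNX3, a Runt-domain factor, had 6 regions at 16.0 to 119 kb, with clone 4 folds from 4.43 to 10.1 and clone 5 folds from 2.96 to 6.90. The promoter window printed above, at its downstream start, held a further PLAG1-S summit with folds of 5.32 and 4.18, so that some regions far from the gene were stronger than the peak at its start. RUNX1, a regulator of definitive blood formation, had 2 regions, at 57.1 kb with 9.69 and 5.43 and at 156 kb with 9.89 and 7.10. CEBPA, which drives granulocyte development, had 4 regions between 23.7 and 36.4 kb, led in clone 4 by one at 10.0 and 7.65 and in clone 5 by one at 9.22 and 9.17.

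GATA2, a stem and progenitor cell factor, had 1 region 54.4 kb from its 5′ end with folds of 9.48 and 5.43. MYB, needed for progenitor growth, had 1 region 6.52 kb from its 5′ end with 6.54 in clone 4 from 39 fragments and 4.06 in clone 5 from 24. The summit in the MYB promoter window shown above had 4.98 and 4.22, similar to this distal region in clone 5. GATA1, the main erythroid GATA factor, had 1 region 3.52 kb from its 5′ end with 6.10 and 5.80, and LMO2, a bridging protein of the same complexes, 1 at 52.8 kb with 8.07 and 7.07.

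Of 25 red cell and iron genes, 5 (20%, 8.86% to 39.1%) were nearest to a region, with 7 regions at 5.54 per Mb. Their space was 50.6 kb per gene. FTH1, the ferritin heavy chain gene, had 2 regions, the stronger at 74.7 kb with 13.8 and 10.1. SLC4A1, which encodes the red cell anion exchanger, had 2, the stronger at 11.4 and 11.5. HBG2, a fetal globin gene, had 1 at 3.94 kb with 9.91 and 7.61. TFRC, the transferrin receptor gene, had 1 with 5.86 and 6.63, and GYPC, a glycophorin gene, 1 with 4.89 and 5.51.

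Of 31 cytokine receptor and signalling genes, 6 (19.4%, 9.19% to 36.3%) were nearest to a region, with 18 regions at 4.61 per Mb. Their space was also wide, at 126 kb per gene. PIM1, a cytokine-induced kinase gene, had 3, led by one 60.2 kb from its 5′ end with 13.1 and 12.7. CCND1, the cyclin D1 gene, had 4 between 47.1 and 142 kb, led in clone 4 by 12.6 and 7.50. SPRED2, which encodes an inhibitor of Ras signalling, had 7, led in clone 4 by one at 119 kb with 12.5 and 5.43. Some of the SPRED2 regions overlapped the same clone 5 peak. SOCS1, a feedback inhibitor of cytokine receptors, had 2, with 10.8 and 7.71 at the first and 10.1 and 9.65 at the second. KIT, the stem cell factor receptor gene, had 1 at 110 kb with 10.1 and 6.15. For these regions the ratio of the clone 4 to the clone 5 fold was 2.30 near SPRED2, 1.69 near CCND1, 1.65 near KIT, 1.41 at the first SOCS1 region and 1.03 near PIM1. Each had the largest clone 4 fold of its gene, the numerator of the ratio, so this choice raises the ratios. The lowest ratio at any region of the gene was 0.956 for SPRED2, 1.08 for CCND1, 1.05 for SOCS1 and 0.931 for PIM1.

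Of 152 genes in developmental transcription factor families, 32 (21.1%, 15.3% to 28.2%) were nearest to a region, with 57 regions at 2.67 per Mb. This group had the widest space per gene of the lists, 140 kb against 59.7 kb over all coding genes. Its density was nearer to that of all genes than its share was. FOXO6 led it. LHX2, a LIM homeobox gene, had 13.6 and 8.74 at 112 kb, SIX3, a forebrain homeobox gene, 12.4 and 11.4 at 9.81 kb, FOXL1 11.3 and 7.22 at 223 kb, and FOXI1 10.4 and 7.67 at 41.8 kb.

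Shares and densities were lower for 2 large families. Of 517 zinc finger genes, 26 (5.03%, 3.45% to 7.27%) were nearest to a region, at 1.11 per Mb, among them ZNF608 with a region of 13.2 and 9.69. Of 392 olfactory receptor genes, 4 (1.02%, 0.398% to 2.59%) were, at 0.183 per Mb, with the strongest region by OR2AT4 at 15.6 and 10.4. In the PLAG family and imprinted growth gene list, 1 of 11 genes (9.09%, 1.62% to 37.7%) was nearest, DLK1, an imprinted Notch-family ligand gene, with 3 regions at 33.1 to 49.2 kb and clone 4 folds from 4.50 to 8.43. These 3 regions gave 10.7 per Mb, the highest density of the 7 lists, over 0.281 Mb of space. At 25.5 kb per gene, this list had the least space per gene of the 7. The lists were chosen with earlier results of these data known, and no test of them was made.

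A promoter window of 300 bases was matched for 1098 of the 1423 nearest coding genes, in 1599 windows. A gene can have several windows, which can overlap, and the intervals below treat each window as separate. The G-rich motif was in 760 of these windows (47.5%, 45.1% to 50.0%), against 38.6% of 22132 coding promoter windows and 55.3% of the 3427 windows with a PLAG1-S summit. The E-box was in 9.57%, 8.34% and 34.4% of the same windows. The median GC content rose in the same order as the G-rich share, at 65.3%, 62.3% and 69.7%, and its part in the shares was not tested. A PLAG1-S summit lay in 285 of the 1599 windows, and 58.9% of those held the G-rich motif, against 45.1% of the 1314 without a summit. Of the 18 genes nearest to the strongest regions 16 had a window, and a PLAG1-S summit was in that of 1, FOXK1. This gene was among the 18 only through a clone 5 value that belongs to a neighbouring summit. The PLAG1-S peak in its promoter window overlapped a USF2 peak.

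The regions just inside each limit and the peaks just outside it are given here as a description. The widest region, 696 bp by MDGA1, had folds of 7.82 and 7.47, and a peak of 700 bp by CD34 that was left out had 3.91 and 5.87. The region nearest to a gene end, at 3009 bp and with ADARB2 as its nearest coding gene, had 4.48 and 6.67, and a peak left out at 2987 bp, by EPHX3, had 6.31 and 6.36. The region nearest to USF2, at 122 bp and by IGLL5, had 2.67 and 3.08, and a peak left out at 88 bp, by SDK2, had 4.78 and 6.10. By 1 limit alone, 45 peaks were left out for width, 433 for USF2, 2375 for lying within 3 kb of a gene end, 4189 for a summit inside a gene and 3117 for clone 5.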

How the data were processed

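Peak lists of 4 ChIP-seq libraries were analysed (PLAG1-S and USF2, clones 4 and 5). Per the submitters' processing notes, FastQC, cutadapt, HISAT2 2.0.4, SAMtools, MACS2, bedtools and HOMER were used with hg38. The MACS2 version and read filters are not given in the sources used here. Of the deposited columns, the fold is the authors' ratio of signal to local background at the summit. The deposited −log10 p and −log10 q columns come from the authors' peak caller. The deposited score follows the q and was not used further. In clone 4 the largest q-value listed was 0.00990 for PLAG1-S and 0.0494 for USF2, and absence of USF2 means only that no peak was listed.

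Fragments at each summit and local background were recovered from fold and p under a Poisson model, accepted within 0.001 of the deposited −log10 p, which held for at least 99.9% of peaks. This and the rule for regions were tested on simulated peaks. Gene positions are from RefSeq (GRCh38.p14, 59098 genes). Allowed space was counted on a grid of 200 bp. Shares carry 95% Wilson intervals (statsmodels 0.14.6). Python 3.11.15, numpy 2.4.6, pandas 2.3.3, scipy 1.17.1 and matplotlib 3.10.9 were used. Peaks are not replicates, so no p-value was computed. Named genes are the nearest coding genes of the 12 regions with the largest fold in each clone, of regions just inside and outside the limits, of the 5 runs with most regions (with a tie for the last, both were taken), and up to 5 genes per list by clone 4 fold; GATA2, MYB, GATA1, LMO2, SHH, RNA45SN1 and RNA45SN2 were added after their values were seen. A planned search for motifs around the summits was not run, as no genome sequence was used here, and the promoter windows were searched instead, a choice made after seeing the data. Members and lists were chosen with earlier results of these data known.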

Additional observations from a re-analysis of the deposited data

Results flagged for a closer look

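On sequences outside chromosomes 1 to 22 and X, clone 4 had 243 PLAG1-S peaks that no comparison above used, and 76 of them were narrow, found in clone 5 and without a USF2 peak within 100 bp. Of these, 71 lay on sequences not placed on a chromosome and 5 on the mitochondrial genome. Their clone 4 folds ranged from 1.41 to 18.7 with a median of 4.04, and their clone 5 folds from 1.57 to 15.8 with a median of 4.06. No IgG or untagged control was analysed here.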

How the results depend on the processing

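Over 70 recomputed values, 49 stayed within their limits (1.5 times for counts, 1 SD of the clone medians for folds, 95% intervals for shares and distance) and 21 moved. A −log10 q of at least 10 left 722 regions, with folds of 8.89 and 7.06, a PLAG1-S neighbour within 10 kb of 46.3%, a median of 21290 bp to a coding gene end and 77.6% with the larger fold in clone 4, which was 76.9% with summits within 50 bp. Over 10 kb from gene ends, 1086 regions remained, with 35.6% near PLAG1-S, 15.4% near USF2 and 40417 bp. With protein-coding genes only there were 3753. USF2 lay within 10 kb of 18.4% with no USF2 peak allowed within 1 kb and of 30.7% with only reproducible USF2 peaks excluded. Without either PLAG1-S replicate the number was 3036 to 5204, the distance 24413 to 26440 bp, the share near PLAG1-S 49.5% to 53.6% and near USF2 17.2% to 23.9%. With clone 4 alone its median fold was 5.13, and with clone 5 alone 4.87. Leaving out USF2 replicates gave 2116 to 2352 regions. No paired analysis was possible because the results come from no test. Motif windows around summits were not run. The number of fragments per region, a median of 30 and 23, limits each single fold.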
